A study of Mus musculus with 6 samples.

Results

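The EGF receptor family and its ligands were followed as 10 named genes, and all 10 were found by symbol among the 19739 genes of the deposited expression table. They comprise 3 receptors (Egfr, Erbb2 and Erbb3), 6 ligands (Areg, Ereg, Hbegf, Tgfa, Btc and Epgn) and 1 inhibitor (Errfi1). RNA had been sequenced from cultured primary mammary luminal cells of wild-type mice, isolated by flow cytometry, in 3 libraries of cells given EFNA3 protein at 1 µg/ml for 24 hours and 3 control libraries at 0 µg/ml. EFNA3 is ephrin-A3, a ligand of Eph receptors. All cells were first starved of serum for 12 hours, and all had been grown beforehand in DMEM/F12 that held 10 ng/ml of EGF and 20 ng/ml of FGF2, next to serum (FBS, 5%), heparin (4 µg/ml) and Y-27632 (5 µM), which inhibits ROCK. Every culture had therefore met a ligand of Egfr before the comparison, and no source used here says whether EGF stayed in the serum-free medium. Neither the age of the mice nor the origin of the replicates is stated; p-values thus reflect the spread among 6 libraries, which may be technical.

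Receptors of this family are membrane tyrosine kinases that work in pairs. Egfr binds EGF, amphiregulin (Areg), transforming growth factor alpha (Tgfa), epigen (Epgn), betacellulin (Btc), heparin-binding EGF (Hbegf) and epiregulin (Ereg); Erbb2 has no known ligand of its own and acts as a partner; Erbb3 binds neuregulins, has a weak kinase and signals through its partner. The ligands are made as membrane proteins and cut loose by proteases, and Errfi1 (Mig6), which is induced by receptor activity, binds the kinase and restrains it. In the mammary gland amphiregulin is known as the epithelial signal downstream of oestrogen that drives duct growth.

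A run of 4 ligand genes lies side by side. In the RefSeq annotation of the mouse assembly GRCm38.p6, the order of protein-coding genes on chromosome 5 was Epgn, Ereg, Areg and Btc, with Epgn preceded by Mthfd2l and Btc followed by Parm1. RefSeq promoter windows of 300 bases, from 250 before to 50 after the annotated start, were matched for 7 of the 10 members, Errfi1 with 2 windows, and Erbb3, Ereg and Hbegf are named only. The windows of Areg, Errfi1 and Egfr are shown because they contrast a ligand, an inhibitor and a receptor. Capitals mark every match, on either strand, to 5 motifs that were picked after the windows had been read and are spelled out after the sequences. All windows are on the + strand of GRCm38.p6, at chr5:91139349-91139648 for Areg, chr4:150854820-150855119 for Errfi1 and chr11:16751953-16752252 for Egfr.
Areg: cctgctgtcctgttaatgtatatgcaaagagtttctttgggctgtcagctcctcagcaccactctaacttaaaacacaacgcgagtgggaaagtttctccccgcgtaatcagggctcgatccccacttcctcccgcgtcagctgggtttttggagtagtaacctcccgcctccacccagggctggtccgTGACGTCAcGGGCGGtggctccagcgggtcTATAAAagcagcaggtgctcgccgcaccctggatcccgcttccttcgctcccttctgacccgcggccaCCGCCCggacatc
Errfi1: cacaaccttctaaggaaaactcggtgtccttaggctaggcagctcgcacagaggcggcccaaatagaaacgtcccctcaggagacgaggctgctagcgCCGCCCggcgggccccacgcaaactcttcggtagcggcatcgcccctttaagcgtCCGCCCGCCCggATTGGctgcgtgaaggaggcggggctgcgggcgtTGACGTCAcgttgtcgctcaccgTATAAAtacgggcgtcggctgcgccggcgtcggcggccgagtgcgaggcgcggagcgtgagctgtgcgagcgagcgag
Egfr: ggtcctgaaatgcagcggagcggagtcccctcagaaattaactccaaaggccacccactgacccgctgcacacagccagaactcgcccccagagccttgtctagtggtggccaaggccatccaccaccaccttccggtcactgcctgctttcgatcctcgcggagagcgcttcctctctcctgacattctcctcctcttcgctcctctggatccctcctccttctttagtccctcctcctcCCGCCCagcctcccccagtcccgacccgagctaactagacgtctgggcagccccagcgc

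The cAMP response element (CRE), searched as TGACGTCA, stood in the Areg and Errfi1 windows shown and in 1.79% of all 32851 windows. The windows of Egfr, Epgn, Btc, Tgfa and Erbb2 held none. Since the motifs were picked after the windows had been read, this share gives no test of the family. In the Areg window the CRE began at position -61 and in the Errfi1 window at -51, where position 0 is the first transcribed base. Both windows also held the letters TATAAA of a TATA box, at -31 in Areg and -28 in Errfi1, as did 13.6% of all windows. The Egfr window held no TATA box and 1 GC box, searched as GGGCGG, at -9. GC boxes did not set it apart, since the Areg window held 2 and the Errfi1 window shown held 3. A GC box was found in 35.7% of windows. The CCAAT box, searched by its 5 letters, was matched in Errfi1, at -85, and in 37.4% of windows. The AP-1 motif, searched as TGANTCA, was in 7.81% of windows and in none of these 3. In none of these windows did matches to different motifs overlap. Errfi1 has another RefSeq window, at chr4:150853546-150853845, with a GC share of 42% and no match to any of the 5 motifs; the window shown was picked for its CRE. The GC share was 59.3% for Areg, 66.7% for Errfi1 and 62.3% for Egfr, against a median of 52.7% over all windows. These matches describe letters only; binding was not measured.

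The deposited values are log2 expression values that had been brought to a common distribution, with a median of 8.10, and the depth of the libraries is unknown. The luminal label was checked against markers, which did not show the cultures to be luminal alone. Luminal keratins were abundant (Krt8 at 13.82 ± 0.11 in EFNA3 libraries and 13.70 ± 0.06 in controls, SD, n = 3 each), and so were basal keratins (Krt14 at 16.38 ± 0.05 in EFNA3 libraries and 16.26 ± 0.08 in controls). Of the same basal list, Krt5 averaged 14.9 in both groups, and Oxtr 13.31 with EFNA3 and 13.44 in controls. Trp63 averaged 11.74 with EFNA3 and 11.79 in controls, and Krt17 10.32 with EFNA3 and 10.09 in controls. The contractile genes Acta2, Tagln, Myh11 and Cnn1 of this list had far lower levels. Acta2 stood at 7.84 ± 0.12 with EFNA3 and 7.77 ± 0.11 in controls, and Tagln at 4.67 ± 0.52 with EFNA3 and 5.20 ± 0.11 in controls. Myh11, at 1.22 ± 0.43 with EFNA3 and 2.65 ± 0.87 in controls, and Cnn1, at 1.40 ± 1.26 with EFNA3 and 2.68 ± 0.36 in controls, did not pass the filter on low values (3.32 or more in at least 3 libraries). The log2 of the summed linear values of 8 luminal markers ran from 16.38 to 16.63 with EFNA3 and from 16.30 to 16.39 in controls. For 9 basal markers these sums were higher than the luminal ones in every library. They ran from 16.99 to 17.06 with EFNA3 and from 16.90 to 16.99 in controls. For 9 markers of hormone-sensing luminal cells they ran from 12.88 to 13.20 with EFNA3 and from 13.21 to 13.30 in controls; the part of this difference in the results was not tested. Prlr, the prolactin receptor and by far the highest of these 9, differed by -0.31, and by -0.10 with the length and GC correction described below. Of the 8 that were tested 5 were lower and 3 higher, the 3 being Cited1 (0.63, without overlap), Ly6a (0.32) and Wnt4 (0.16). For 6 fibroblast markers they ran from 10.65 to 10.81 with EFNA3 and from 10.76 to 10.82 in controls, although 5 of these 6 were higher and Pdgfra alone, the highest in level, was lower. For 4 endothelial, 3 immune and 4 adipocyte markers they lay between 7.33 and 9.79 in all libraries. Each of these sums rested mostly on a single gene, namely Pecam1 (8.25 with EFNA3, 8.27 in controls), Cd68 (7.12 and 7.25) and Pparg (9.58 and 9.69). The next highest gene of these lists, Csf1r, averaged only 4.80 with EFNA3 and 4.39 in controls. In bulk cultures fewer cells of a type and less RNA per cell cannot be told apart. EFNA3 replicate 1 stood apart by transcript length: its median deviation from the 6-library mean was -0.32 in the eighth of tested genes with the longest transcripts, from 5946 nt, and 0.31 in the shortest eighth, up to 1059 nt. In the other 5 libraries the median deviation lay between 0.02 and 0.12 in the longest eighth.

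Comparing levels between genes needs a value per length, so the log2 of the longest annotated transcript in kilobases was subtracted. This step takes the deposited values as not yet divided by length. They carry no unit that would show this. On this per-length log2 scale the receptors were ordered Erbb3, Erbb2, Egfr. Erbb3 averaged 10.09 ± 0.24 with EFNA3 and 10.36 ± 0.04 in controls (SD, n = 3 each). Erbb2 averaged 9.51 ± 0.08 with EFNA3 and 9.54 ± 0.06 in controls, and Egfr 8.60 ± 0.26 with EFNA3 and 8.78 ± 0.10 in controls. The control ranges of neighbours in this order did not overlap. Errfi1, at 9.31 ± 0.03 with EFNA3 and 9.33 ± 0.04 in controls, lay between Erbb2 and Egfr. The order rests on the length used. Without the division Egfr ranked above Erbb2, and with the median transcript length of each gene, 716 nt for Egfr, Egfr ranked 1, Erbb3 ranked 2 and Erbb2 ranked 3.

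**Figure D1:**
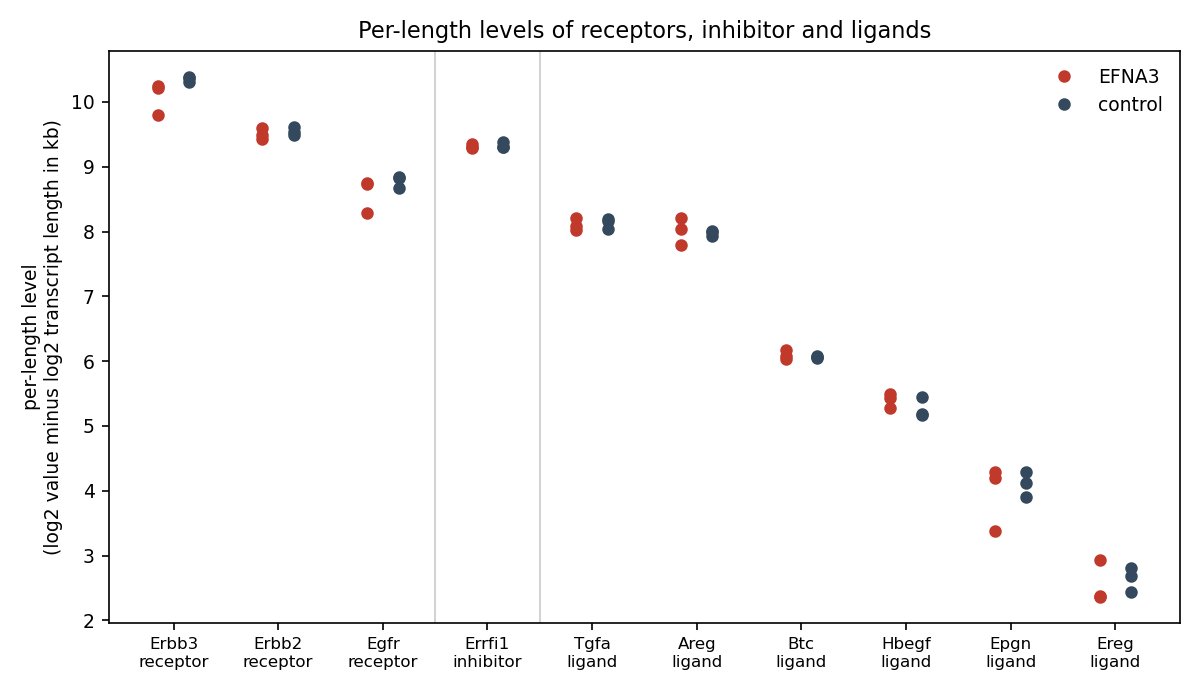
Per-length level of each member, with genes along the horizontal axis grouped by role and the log2 value minus log2 transcript length in kb on the vertical axis; each point is 1 library, EFNA3 left of control. The receptors and Errfi1 lie above 8 and the ligands fall from about the level of Tgfa, 8.13 in controls, to that of Ereg, 2.64.

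Among ligands, 2 stood well above the rest in per-length level. Tgfa averaged 8.11 ± 0.09 with EFNA3 and 8.13 ± 0.08 in controls on the per-length log2 scale, and Areg 8.02 ± 0.21 with EFNA3 and 7.97 ± 0.04 in controls. Their control ranges, 8.05 to 8.19 for Tgfa and 7.926 to 8.003 for Areg, came close without overlapping, and among EFNA3 libraries they overlapped: in EFNA3 replicate 1 Areg, at 8.22, stood above Tgfa, at 8.03. Btc followed at 6.09 ± 0.07 with EFNA3 and 6.06 ± 0.02 in controls, then Hbegf at 5.40 ± 0.11 with EFNA3 and 5.27 ± 0.16 in controls. Epgn stood at 3.95 ± 0.51 with EFNA3 and 4.10 ± 0.19 in controls, and Ereg at 2.56 ± 0.33 with EFNA3 and 2.64 ± 0.19 in controls. The control ranges of these neighbours did not overlap either. Genes next to each other on chromosome 5 thus differed widely in per-length level, with Areg high, Btc lower, and Ereg and Epgn lowest of the ligands. The gap between Areg and Btc rests on the length used: without the division they averaged 8.26 and 8.07 in controls.

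The same levels can be read as shares of a pool, summing linear per-length values over the measured ligands or receptors. Tgfa made up 37.5%, 46.5% and 40.3% of the ligand pool in EFNA3 libraries, against 42.9%, 43.6% and 40.9% in controls. Areg made up 42.6%, 34.8% and 39.0% with EFNA3, against 38.3%, 36.3% and 39.5% in controls. In both groups these 2 ligands held most of the pool, and their shares overlapped between groups. How close the 2 shares lie rests on the length used. With the median transcript length Tgfa held 63.6% with EFNA3 and 64.7% in controls, and Areg 19.6% with EFNA3 and 19.0% in controls. Btc held 10.2% ± 0.1 with EFNA3 and 10.1% ± 0.2 in controls, and Hbegf 6.31% ± 0.31 with EFNA3 and 5.84% ± 0.59 in controls. Epgn held 2.38% ± 0.67 with EFNA3 and 2.60% ± 0.34 in controls, and Ereg 0.894% ± 0.206 with EFNA3 and 0.946% ± 0.125 in controls. Of the receptor pool, Erbb3 held 46.4%, 49.7% and 51.8% with EFNA3 and 52.5%, 53.2% and 51.7% in controls. EFNA3 replicate 3 thus lay above control replicate 3, so the groups overlapped. Erbb2 held 33.1% ± 3.9 with EFNA3 and 29.9% ± 1.7 in controls, and Egfr 17.6% ± 1.2 with EFNA3 and 17.6% ± 0.9 in controls. The receptor shares rest on the length used: with the median transcript length Egfr held 74.2% with EFNA3 and 74.4% in controls, Erbb3 14.6% with EFNA3 and 15.5% in controls, and Erbb2 11.2% with EFNA3 and 10.0% in controls. These shares carry no test.

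The comparison of EFNA3 with control asks how the protein affects expression in these cultures of cells labelled luminal. No member passed limma, adjusted over all 16394 genes tested at 0.05, and neither did any other gene (0%, with 1104 genes, 6.73%, at an unadjusted p under 0.05). All 10 members had passed the filter on low values. The fold changes were small: 3 members were higher, 7 were lower, and the median difference was -0.03 on the log2 scale, against 0.004 over all tested genes. With the length and GC correction described below, 5 were higher and 5 lower, with a median of -0.0020. A single member, Erbb3, was lower without overlap between groups, as were 7.45% of all tested genes, and none was higher without overlap, against 8.53%. Erbb3 was also the only member at an unadjusted p under 0.05, against 2.86% of all tested genes in that direction. In either direction 16% of all tested genes had no overlap. Shares this near the background are not a result about the family.

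Erbb3, the neuregulin receptor, had deposited log2 values of 12.39, 12.80 and 12.83 in EFNA3 libraries, against 12.96, 12.98 and 12.90 in controls. All 3 EFNA3 libraries lay below all 3 controls, and EFNA3 replicate 1 lay far below the others. The difference was -0.27 (SE 0.11, 95% interval -0.53 to -0.02; limma adjusted p = 0.55). At 6016 nt Erbb3 falls in the longest eighth of transcripts, and its deviation in EFNA3 replicate 1 was -0.42. Without that library the difference was -0.13, and it was -0.14 (SE 0.06) after spline fits on transcript length and on GC share had been taken out of each library. The groups did not overlap under the correction either, with 12.63, 12.79 and 12.80 in EFNA3 libraries and 12.87, 12.89 and 12.88 in controls.

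Egfr, the receptor of most ligands measured here, had log2 values of 11.64, 12.09 and 12.11 with EFNA3, against 12.18, 12.20 and 12.02 in controls. The groups overlapped, since control replicate 3 lay below EFNA3 replicates 2 and 3. The difference was -0.19 (SE 0.12, 95% interval -0.47 to 0.09; limma adjusted p = 0.56). It leaned on EFNA3 replicate 1: the difference was -0.03 without that library and 0.02 (SE 0.05) with the length and GC correction, Egfr having the longest transcript of the members, 10208 nt. Erbb2, the receptor with no ligand, had 11.82, 11.92 and 11.76 with EFNA3, against 11.86, 11.81 and 11.93 in controls. These groups were interleaved, with a difference of -0.04 (SE 0.07, 95% interval -0.20 to 0.13; limma adjusted p = 0.84).

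**Figure D2:**
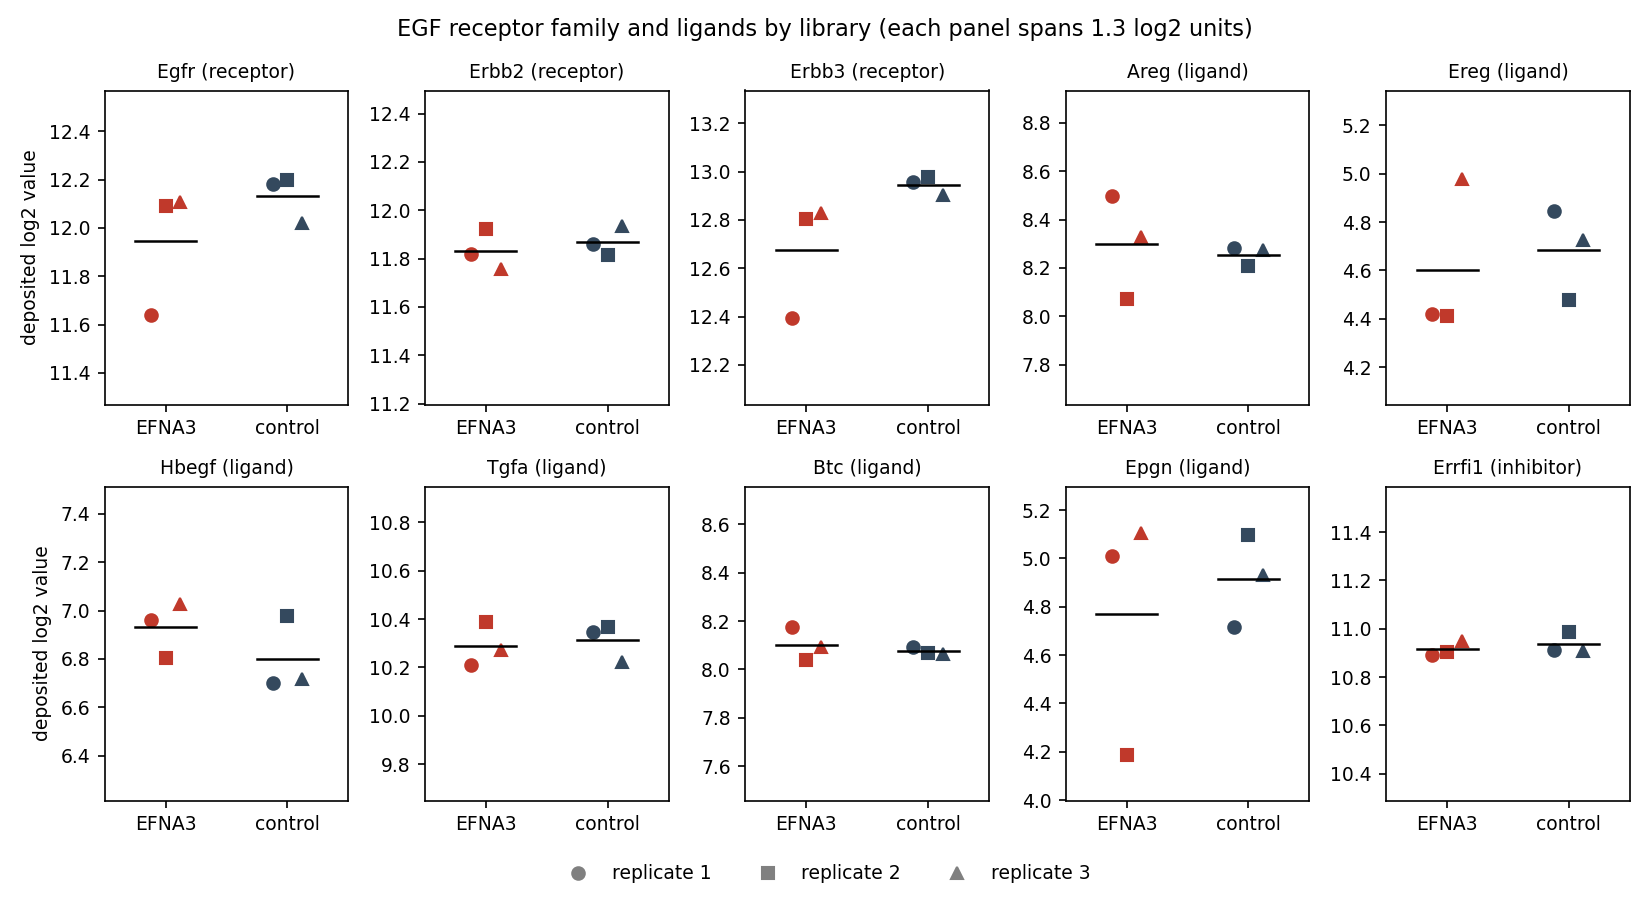
Deposited log2 value of each member in every library, EFNA3 left of control in each panel, with a bar at the group mean and 1 marker per replicate number; every vertical axis spans the same width. Only in Erbb3 do the groups not overlap, and in Erbb3 and Egfr EFNA3 replicate 1, at 12.39 and 11.64, is the lowest library.

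The 3 ligands with the highest levels had small differences between groups. Tgfa had log2 values of 10.21, 10.39 and 10.27 with EFNA3, against 10.35, 10.37 and 10.22 in controls, a difference of -0.02 (95% interval -0.21 to 0.16). Areg had 8.50, 8.07 and 8.33 with EFNA3, against 8.28, 8.21 and 8.28 in controls. Its EFNA3 libraries spread on both sides of the controls, and the difference was 0.04 (95% interval -0.24 to 0.33). Btc, which binds Erbb4 as well as Egfr, had 8.18, 8.04 and 8.09 with EFNA3, against 8.09, 8.07 and 8.06 in controls, a difference of 0.03 (95% interval -0.20 to 0.26). For these 3 ligands the groups overlapped and limma adjusted p lay at 0.91, 0.89 and 0.92. These intervals, and not the p-values, bound the differences that the data allow.

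Hbegf, a heparin-binding ligand, had log2 values of 6.96, 6.80 and 7.03 with EFNA3, against 6.70, 6.98 and 6.72 in controls. Control replicate 2 lay among the EFNA3 libraries. The difference, 0.13 (SE 0.15, 95% interval -0.20 to 0.47; limma adjusted p = 0.71), was the highest among members and was 0.12 both without EFNA3 replicate 1 and with the length and GC correction. Without control replicate 2 it was 0.22, and without control replicate 1 or EFNA3 replicate 3 it was 0.08. Epgn had 5.01, 4.19 and 5.11 with EFNA3, against 4.71, 5.10 and 4.93 in controls, with EFNA3 replicate 2 far below all other libraries. Ereg had 4.42, 4.41 and 4.98 with EFNA3, against 4.85, 4.48 and 4.72 in controls. For these low ligands the differences were -0.15 (95% interval -0.84 to 0.55) and -0.08 (95% interval -0.71 to 0.55), so the data could not show a change of moderate size.

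Errfi1, the receptor inhibitor, had log2 values of 10.89, 10.90 and 10.95 with EFNA3, against 10.91, 10.98 and 10.91 in controls. The difference was -0.02 (SE 0.07, 95% interval -0.17 to 0.13; limma adjusted p = 0.91), with the groups interleaved. Its SD among EFNA3 libraries, 0.03, was below that of any other member, and that of Epgn, 0.51, was the highest.

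**Figure D3:**
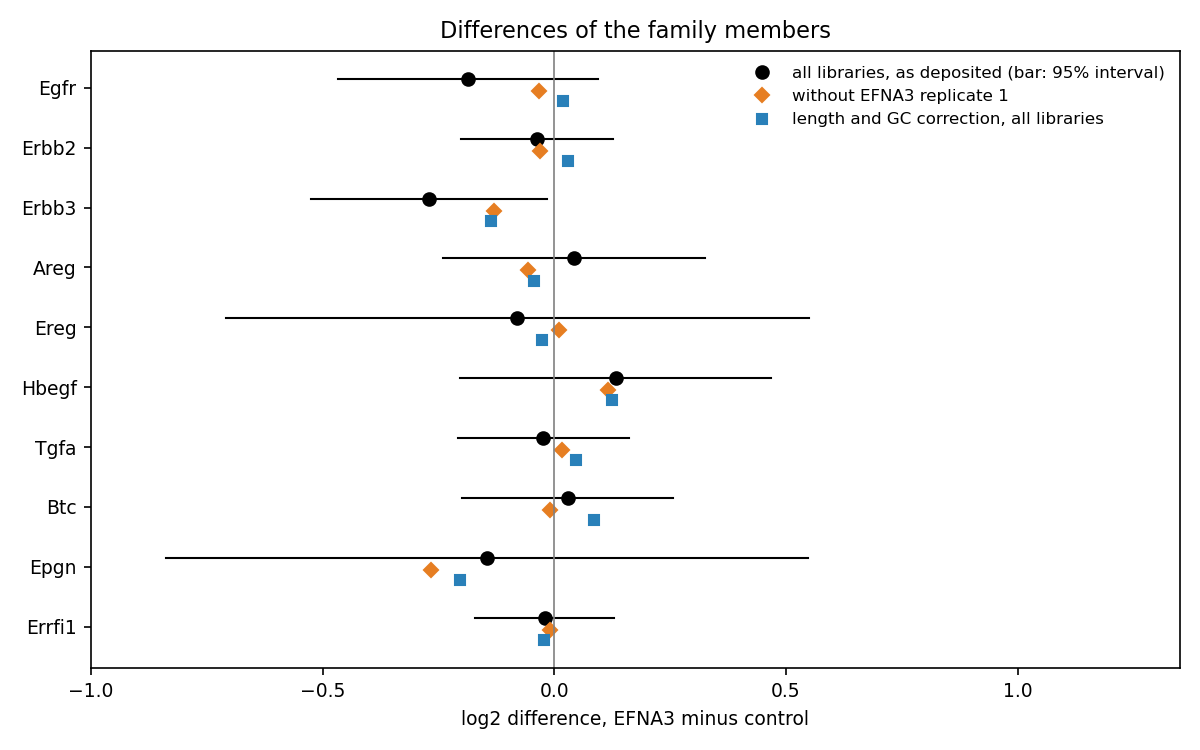
Log2 difference of each member, EFNA3 minus control, on the horizontal axis; black points with bars give the difference and its 95% interval with all libraries, diamonds the difference without EFNA3 replicate 1 and squares that with the length and GC correction. Erbb3 lies below 0 in all 3, at -0.27, -0.13 and -0.14, and Egfr moves from -0.19 to -0.03 and 0.02.

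The balance of ligand to receptor RNA was read in each library as the log2 ligand pool minus the log2 receptor pool, both per length. It stood at -1.47, -1.91 and -1.78 in EFNA3 libraries, against -1.91, -1.91 and -1.93 in controls. EFNA3 replicate 2, at -1.908, lay next to the highest control, at -1.909, so the separation was very small. The receptor pool averaged 11.11 ± 0.17 with EFNA3 and 11.29 ± 0.02 in controls, and the ligand pool 9.39 ± 0.07 with EFNA3 and 9.37 ± 0.03 in controls. With the length and GC correction the balance was -1.69, -1.88 and -1.78 with EFNA3, against -1.85, -1.83 and -1.88 in controls, and the groups overlapped. The difference in balance was 0.20 as deposited, 0.07 with the correction and 0.07 without EFNA3 replicate 1. The settings beside the deposited one were chosen after seeing the data.

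**Figure D4:**
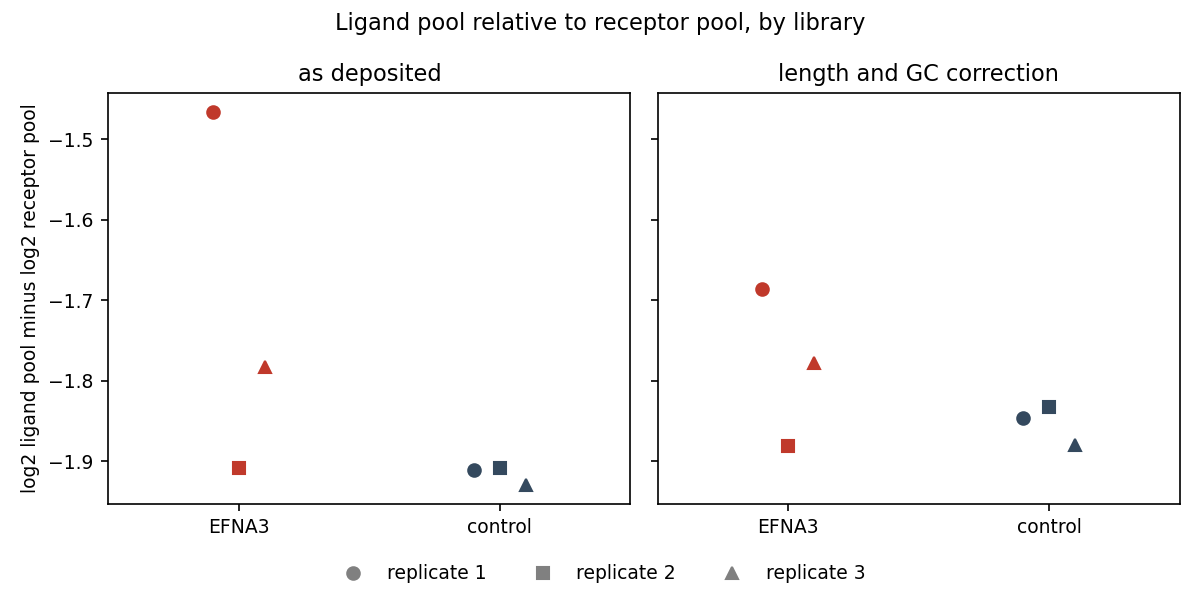
Log2 ligand pool minus log2 receptor pool on the vertical axis, 1 point per library, EFNA3 left of control, from deposited values on the left and with the length and GC correction on the right. The controls lie within 0.05 of each other in both panels, and EFNA3 replicate 1 is the highest library, at -1.47 and -1.69.

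Genes of like pattern were sought as those with the smallest root-mean-square difference between profiles over the 6 libraries, each centred on its own mean. For Egfr these were Nrip1 (0.012), Chst11 (0.013) and Xiap (0.014), and for Tgfa, the ligand with the highest per-length level, Amotl2 (0.015), Epc1 (0.017) and Gga2 (0.018). The 3 genes like Egfr shared its low value in EFNA3 replicate 1, for example 11.25 in Nrip1, against 11.70 and 11.68 in the other EFNA3 libraries and 11.79, 11.79 and 11.61 in controls. Their longest transcripts measure 7868, 5527 and 6834 nt.

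Other receptors and ligands of the family were low or overlapped between groups. Erbb4, the neuregulin receptor with an active kinase, had log2 values of 7.35, 8.04 and 8.13 with EFNA3, against 8.30, 8.05 and 7.95 in controls, a difference of -0.26 (SE 0.21) that was -0.01 without EFNA3 replicate 1. Nrg2, a neuregulin, differed by 0.41 (SE 0.29), Nrg1 by -0.17 (SE 0.22), Nrg4 by 0.11 (SE 0.23) and Egf by 0.20 (SE 0.28). Without EFNA3 replicate 1 the Nrg1 difference was 0.03. Nrg3 was not analysed here. Of the 5 tested, 0 stood at an unadjusted limma p under 0.05 or without overlap, with a median difference of 0.11. This median moved to -0.0079 if control replicate 1 was left out, to 0.20 if EFNA3 replicate 1 was, and to -0.22 for the 2 genes left by a filter at 50 on the linear scale.

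Genes that release the ligands had differences between -0.11 and 0.19. Of 7 tested, 3 were higher and 4 lower, the median difference was -0.04, and 0 stood without overlap or at an unadjusted p under 0.05. The median was -9.1e-05 without EFNA3 replicate 1 and -0.00011 with the length and GC correction. Adam15, a membrane metalloproteinase, differed by 0.19 (SE 0.09), also with the correction, and by 0.11 without EFNA3 replicate 1. Nrd1 (Nrdc), which enhances shedding, differed by -0.08 (SE 0.07), and Adam10, a sheddase of Btc, by -0.11 (SE 0.10), which was -0.0051 without that library. Adam17, the main sheddase of Areg, Tgfa and Hbegf, differed by 0.00 (95% interval -0.15 to 0.15).

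Among 11 adaptors and proximal signalling genes, 3 were higher and 8 lower, with a median of -0.06. Without EFNA3 replicate 1 there were 5 higher and 6 lower, with a median of -0.03, and with the length and GC correction 6 higher and 5 lower, with a median of 0.02. Hras and Nras, both RAS GTPases, were higher without overlap, against 8.53% of all tested genes. Nras had 12.40, 12.31 and 12.34 with EFNA3, against 12.23, 12.29 and 12.27 in controls. The gap between its groups was thus narrow, and the difference was 0.08 (SE 0.06). Hras had 11.14, 10.81 and 10.74 with EFNA3, against 10.61, 10.52 and 10.65 in controls. Its difference of 0.30 (SE 0.11, limma adjusted p = 0.55) was 0.18 without EFNA3 replicate 1 and 0.27 with the length and GC correction. The adaptor Gab2 differed by -0.27 (SE 0.13), by -0.12 without that library and by -0.13 with the correction.

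Of 12 genes of receptor down-regulation, 5 were higher and 7 lower, with a median of -0.02. This turned to 7 higher and 5 lower both without EFNA3 replicate 1, with a median of 0.0074, and with the length and GC correction, with a median of 0.016. In each direction 1 gene stood without overlap, against 8.53% of all tested genes higher and 7.45% lower. Cbl, the ubiquitin ligase that sends Egfr to degradation, had 10.86, 11.51 and 11.56 with EFNA3, against 11.78, 11.67 and 11.57 in controls. The groups did not overlap, by a margin of about 0.01, and the difference of -0.36 (SE 0.17) was -0.14 both without EFNA3 replicate 1 and with the length and GC correction. Ptpn2, a tyrosine phosphatase, had 10.86, 10.49 and 10.56 with EFNA3, against 10.39, 10.35 and 10.39 in controls. Its difference of 0.26 (SE 0.10) was 0.14 without EFNA3 replicate 1 and 0.25 with the correction.

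Of 13 tested genes induced by growth factors, 10 were higher and 3 lower, with a median of 0.05. Without EFNA3 replicate 1 there were 8 higher and 5 lower, with a median of 0.02. With the length and GC correction and all libraries there were 9 higher and 4 lower, with a median of 0.046. With the correction and without EFNA3 replicate 1 there were 6 higher and 7 lower, with a median of -0.0056. In each direction 1 gene stood without overlap, again against 8.53% of all tested genes higher and 7.45% lower. Ier3, an immediate early gene, had 11.48, 11.09 and 11.08 with EFNA3, against 10.90, 10.86 and 10.93 in controls. Its difference of 0.32 (SE 0.11) was 0.19 without EFNA3 replicate 1 and 0.21 with the length and GC correction. Egr3, an early growth response factor, had 10.20, 10.25 and 10.10 with EFNA3, against 10.37, 10.46 and 10.39 in controls. This difference, -0.22 (SE 0.07), was -0.23 without EFNA3 replicate 1 and -0.18 with the length and GC correction. For both genes limma adjusted p was 0.55.

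**Figure D5:**
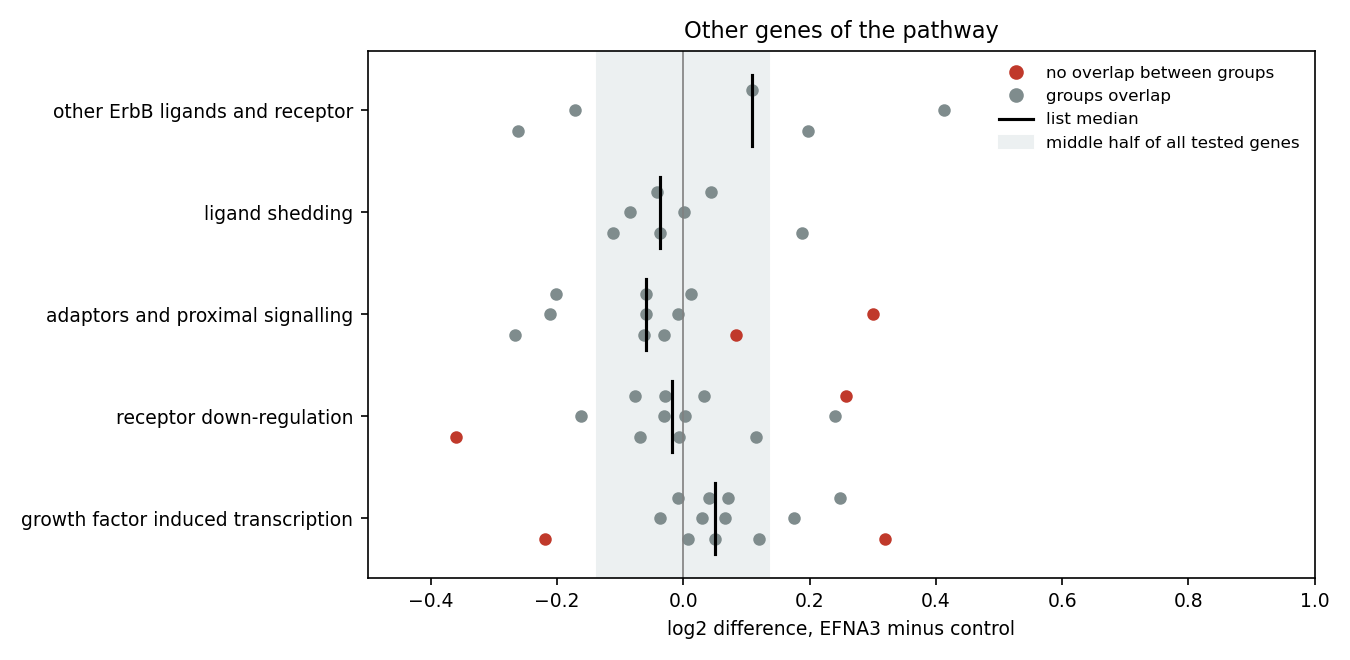
Log2 difference, EFNA3 minus control, of each tested gene in 5 lists of the pathway; coloured points mark genes whose groups do not overlap, vertical bars the list medians, and the grey band the interquartile range of all tested genes, from -0.14 to 0.14. List medians lie between -0.06 and 0.11, inside the band.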

How the data were processed

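RNA sequencing values of 3 EFNA3 and 3 control libraries were used, 1 column per library, assigned by the description label of each sample. Per the submitters' processing notes, Trim Galore, Subread and featureCounts were used with build mm39; no source used here gives versions, annotation or strand setting. The authors' deposited values were taken as log2, since they ran from -0.79 to 18.1 and were not whole; the base is inferred. Sorted columns differed by at most 0.00302, as quantile normalization gives, so depth is unknown and a shift of all genes could not be seen.

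Genes at 3.32 or more (10 on the linear scale) in at least 3 libraries were tested, 16394 in all, using limma 3.58.1 (R 4.3.3) with a mean-variance trend and without pseudocount or block; its moderated tests are two-sided and adjusted by Benjamini-Hochberg. An exact permutation test of 3 against 3 cannot go below 0.1. The fit was tested on simulated data. Transcript lengths and GC shares came from GENCODE vM21 on an earlier build, by symbol, for 98.8% of tested genes. The correction removed splines with 5 degrees of freedom in each from the libraries. The members and lists were chosen with earlier results of these data known. All members and any other ErbB receptor or ligand in the table are named, with the 2 genes of each pathway list that had the smallest p and 3 genes of like pattern for Egfr and for the highest ligand; Nras, Adam10 and Adam17 are named beyond that rule, as are the marker genes, after their values were seen. Alternatives changed the filter, pseudocount, scaling, variance trend, weights of libraries, blocks by replicate number, single libraries left out, and length.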

Additional observations from a re-analysis of the deposited data

How the results depend on the processing

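In the settings tried, the members tested stayed above an adjusted p of 0.05; Ereg and Epgn did not pass the filter at 50 on the linear scale and have no value there. The count over all genes was 0 except with a replicate block numbered as in the descriptions, where it was 71, none of them a member; there the difference rests on 2 pairs with 1 residual degree of freedom, and the cause was not tested. With a replicate block numbered as in the titles the count was 0. Whether the title numbers pair the libraries could not be told. Deviations from group means correlated at -0.11, 0.03 and -0.32 across genes for libraries of the same title number. Centring on the mean of 3 libraries ties such correlations to each other, and EFNA3 replicate 1 carries a length trend, so they cannot exclude a pairing. At an unadjusted limma p under 0.05 stood 1104 genes with all libraries. The count was 568, 512 and 740 without control replicate 1, 2 or 3. It was 756, 1801 and 2478 without EFNA3 replicate 1, 2 or 3.

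The differences of Erbb3 (-0.35 to -0.08) and Hbegf (0.08 to 0.29) kept their sign in all settings, and those of the other 8 did not. With the length and GC correction, alone or with the replicate block by titles, Egfr was 0.019, Erbb2 0.030, Areg -0.045 and Tgfa 0.047; with it and without EFNA3 replicate 1, Egfr was 0.030, Areg -0.096, Ereg 0.025 and Tgfa 0.044. With library weights Areg was -0.079, Tgfa 0.025, Btc -0.012 and Epgn -0.38. With the replicate block by descriptions Epgn was 0.24 and Errfi1 0.010. Leaving out 1 library at a time gave -0.082 to 0.0010 for Erbb2, -0.056 to 0.16 for Areg, -0.27 to 0.017 for Ereg, -0.073 to 0.017 for Tgfa, -0.0086 to 0.061 for Btc, -0.31 to 0.14 for Epgn and -0.038 to 0.0041 for Errfi1.

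Among receptors, Egfr ranked 2 and Erbb2 ranked 3 with no division by length. With the median transcript length, 716 nt for Egfr, Egfr ranked 1, Erbb3 ranked 2 and Erbb2 ranked 3. Ligand ranks held in these settings, but without division by length Tgfa held 63.1% and Areg 15.2% of the control ligand pool. Of the members, Erbb3 alone had no overlap between groups also without EFNA3 replicate 1 and with the correction, against 9.2% and 6.27% of genes lower without overlap. The low ligands Epgn and Ereg have the widest intervals.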

Other observations

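Oestrogen and progesterone receptors, which lie upstream of amphiregulin in the gland, were measured beside it. Esr1 had log2 values of 9.34, 9.81 and 9.73 with EFNA3, against 9.80, 9.93 and 9.72 in controls, and Pgr 9.16, 9.72 and 9.58 with EFNA3, against 9.75, 9.71 and 9.72 in controls. In both genes EFNA3 replicate 1 was the lowest library and the groups overlapped; without it the differences were -0.05 and -0.07. The AP-1 gene Fosl1, below the filter and not tested, had 1.74, 2.16 and 2.07 with EFNA3, against 2.98, 1.71 and 4.64 in controls, a wide spread among controls at a very low level. These genes were picked after their values were seen.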
